A study of Mus musculus with 4 samples.

Results

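The core circadian clock was followed through 8 genes, the activators Arntl (also called Bmal1), Clock and Npas2 and the repressors Per1, Per2, Per3, Cry1 and Cry2. They were taken by symbol from the array annotation, where each of the 8 matched a single feature, and all 8 lay above the expression floor that kept 18084 of 30142 named genes. Lung RNA came from male C57BL mice, an inbred laboratory strain, that had inhaled mainstream cigarette smoke or clean air from 10 weeks of age, between 10 and 11 AM on 5 days a week. The smoke pools held 5 mice after 2 weeks and 4 mice after 4 weeks, and the control pools, which breathed clean air, held 5 mice at each duration. Animals were 12 weeks old at the end of the 2-week exposure and 14 weeks old at the end of the 4-week exposure. Each pool was hybridised to 1 array, so the spread between animals was averaged out and no group had a replicate. The sources used here do not give the hour at which the lungs were removed. Each pool therefore gives 1 value per gene at an unknown hour. A shift in the phase of a rhythm, a change in its mean level and different hours of removal between pools cannot be told apart.

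In mammals the circadian clock is a feedback loop of transcription. ARNTL pairs with CLOCK, or with its paralog NPAS2, and the pair binds E-box elements to switch on the Per and Cry genes, whose proteins return to the nucleus and inhibit the pair. Another loop runs through the nuclear receptors REV-ERB (Nr1d1 and Nr1d2) and ROR, which repress and activate Arntl, and the output factor DBP acts on D-boxes, among them those of the Per genes. In rodent lung the transcripts cycle over the day, with Arntl out of phase with the Per genes, and the clock of airway club cells is known to time the inflammatory response.

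The deposited signal is on a linear scale, with array medians from 58.8 to 61.7. Log2 of the signal is used throughout. The highest log2 value was 19.69, above the 16 that a 16-bit scan allows, while its natural log was 13.65. If the authors' linear values were made with base e, every log2 difference below has to be multiplied by 0.69. Directions and adjusted p-values would not be touched. Differences between single pools are given without a test. A gene is said to have risen or fallen when its smoke effect, taken over both durations, passed limma, a linear model whose variances are moderated across genes, at a Benjamini-Hochberg adjusted p of 0.05. That fit had terms for smoke and duration, 2 smoke and 2 control pools and 1 residual degree of freedom, and an effect is given with its standard error. An exact permutation test of 2 pools against 2 cannot give a two-sided p below 0.333.

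The members differed in the searched elements that their promoter windows hold, and the windows with a match are shown. E-boxes, D-boxes and ROR sites are kinds of element that go with the loops above, and the cyclic AMP response element is not. RefSeq windows of build GRCm38.p6, from 250 bases before to 50 bases after a transcription start, were found for 7 of the 8 genes, all but Per2, in 11 windows. Both strands were searched for the E-box CACGTG, the related CACGTT, the D-box TTATGTAA or TTACGTAA, the core of the ROR response element as TAGGTCA or TGGGTCA, the cyclic AMP response element TGACGTCA and its core TGACGT, which the longer form contains. Of 32851 windows of this length in the genome, 7.15% held CACGTG, 4.68% CACGTT, 1.06% a D-box, 6.45% the ROR core, 1.79% TGACGTCA and 7.51% TGACGT. The Arntl window at chr7:113207261-113207560 on the plus strand held the ROR core from 31 to 37 bases into the transcript. The Per3 window at chr4:151044616-151044915 on the minus strand held 2 D-boxes, starting at -205 and -158 from the start. The Per1 window at chr11:69098699-69098998 on the plus strand held an E-box starting at -166, and the window of a downstream start at chr11:69099902-69100201, also on the plus strand, held TGACGT starting at -132. The Cry1 window at chr10:85185005-85185304 on the minus strand held an E-box at -60 and, on the other strand, CACGTT from -79 to -74. The Cry2 window at chr2:92434020-92434319 on the minus strand held CACGTT on the other strand, from -166 to -161, and none of the searched letters was found in the windows of Clock and Npas2. A match describes the letters of the window only, and other variants of these elements were not searched. In the sequences below the matches are in capitals.
Arntl: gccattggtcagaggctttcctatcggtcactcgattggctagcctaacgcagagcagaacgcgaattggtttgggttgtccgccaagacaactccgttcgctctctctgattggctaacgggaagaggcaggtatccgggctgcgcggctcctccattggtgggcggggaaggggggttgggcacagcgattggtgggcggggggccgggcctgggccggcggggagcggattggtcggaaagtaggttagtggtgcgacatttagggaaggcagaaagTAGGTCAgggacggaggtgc
Per3: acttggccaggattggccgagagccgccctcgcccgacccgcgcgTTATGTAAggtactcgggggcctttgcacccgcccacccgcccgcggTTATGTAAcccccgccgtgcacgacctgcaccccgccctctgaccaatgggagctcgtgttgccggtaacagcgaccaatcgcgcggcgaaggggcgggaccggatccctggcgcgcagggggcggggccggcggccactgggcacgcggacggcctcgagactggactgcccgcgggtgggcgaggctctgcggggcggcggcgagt
Per1, upstream start: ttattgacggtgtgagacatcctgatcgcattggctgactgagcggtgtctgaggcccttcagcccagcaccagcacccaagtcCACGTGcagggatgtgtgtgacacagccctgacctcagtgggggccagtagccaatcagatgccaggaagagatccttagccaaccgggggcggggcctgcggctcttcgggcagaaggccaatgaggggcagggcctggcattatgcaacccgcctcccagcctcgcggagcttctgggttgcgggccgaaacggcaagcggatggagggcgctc
Per1, downstream start: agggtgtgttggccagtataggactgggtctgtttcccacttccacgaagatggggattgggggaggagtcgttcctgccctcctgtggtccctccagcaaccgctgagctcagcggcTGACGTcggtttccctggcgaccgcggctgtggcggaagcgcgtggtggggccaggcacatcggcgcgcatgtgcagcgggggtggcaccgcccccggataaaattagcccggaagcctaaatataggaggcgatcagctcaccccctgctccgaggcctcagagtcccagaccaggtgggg
Cry1: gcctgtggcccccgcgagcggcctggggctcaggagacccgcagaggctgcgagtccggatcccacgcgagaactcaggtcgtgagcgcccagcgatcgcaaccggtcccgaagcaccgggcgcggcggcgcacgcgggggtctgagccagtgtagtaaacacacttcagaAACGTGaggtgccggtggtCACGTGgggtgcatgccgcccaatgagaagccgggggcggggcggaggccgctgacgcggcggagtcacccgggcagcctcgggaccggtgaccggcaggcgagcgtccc
Cry2: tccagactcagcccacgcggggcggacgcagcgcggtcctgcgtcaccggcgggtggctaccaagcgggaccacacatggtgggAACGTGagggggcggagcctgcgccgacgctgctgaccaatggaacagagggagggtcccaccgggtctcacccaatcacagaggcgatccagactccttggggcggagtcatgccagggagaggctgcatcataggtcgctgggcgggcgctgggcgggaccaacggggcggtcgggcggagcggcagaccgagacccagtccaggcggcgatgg

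Arntl, the obligate activator of the loop, fell with smoke and had the largest effect of the 8 genes. Its signal was 576 in the smoke pool against 1218 in the control pool at 2 weeks, and 494 in the smoke pool against 1251 in the control pool at 4 weeks. Both smoke pools lay far below both control pools, and the 2 control pools were within 0.04 log2 units of each other. The smoke pool was 2.12-fold lower at 2 weeks and 2.53-fold lower at 4 weeks, differences that 0.619% and 0.470% of all genes reached in size. Over both durations Arntl fell by 1.21 ± 0.113 on the log2 scale (limma adjusted p = 0.00752), a mean of 2.31-fold, or 1.79-fold if the values were made with base e. With any 1 pool left out the effect ran from -1.32 to -1.10, where its sign could not turn because the groups did not overlap. Dropping the duration term with all 4 pools kept cannot change the estimate in this balanced design. With all 4 pools but no duration term the effect was unchanged and the call was lost (limma adjusted p = 0.0785), and the fits that left out a pool, which have no duration term either, also lost it. The limma adjusted p was then 0.227 without the 2-week smoke pool, 0.112 without the 2-week control pool, 0.516 without the 4-week smoke pool and 0.0905 without the 4-week control pool.

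Npas2, which can take the place of CLOCK beside ARNTL, was also lower in smoke, with a difference that was unequal between the durations. Its signal was 319.7 in the smoke pool against 468 in the control pool at 2 weeks, and 309 in the smoke pool against 686 in the control pool at 4 weeks. The smoke pools were alike and below both controls, while the controls themselves differed 1.46-fold. Smoke differences were -0.55 at 2 weeks and -1.15 at 4 weeks, and the mean of -0.85 ± 0.155 did not pass (limma adjusted p = 0.0689). It passed after median centring (limma adjusted p = 3.14e-06), where limma's prior had infinite degrees of freedom and 1 variance served all genes. It also passed with the floor at the 60th percentile (adjusted p = 0.0181) and among protein-coding genes alone (adjusted p = 0.000601). Npas2 did not pass after cyclic loess (adjusted p = 0.161), with no floor (adjusted p = 0.0790) or without the duration term (adjusted p = 0.398). With 1 pool left out, in fits without duration, its effect ran from -1.13 to -0.58.

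Clock, whose product pairs with ARNTL, differed less. Its signal was 14665 in the smoke pool against 16650 in the control pool at 2 weeks, and 12090 in the smoke pool against 16135 in the control pool at 4 weeks. The groups did not overlap, but the differences of -0.18 and -0.42 were of a size that 30.2% and 9.42% of genes reached. The effect of -0.30 ± 0.111 did not pass (limma adjusted p = 0.362), and it was -0.16 without the 4-week smoke pool. All 3 activators thus had lower values in both smoke pools than in both control pools, as did 16.8% of all genes, and 1 of the 3 passed the test.

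**Figure D1:**
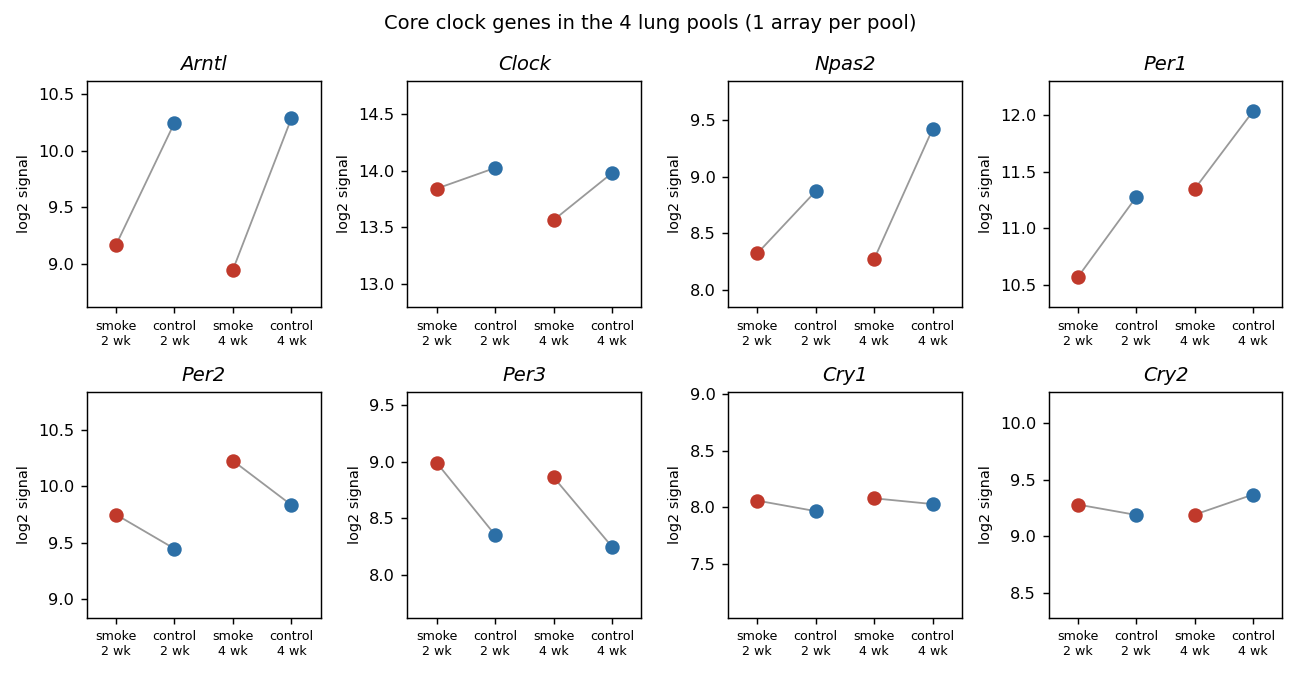
Log2 signal of the 8 core clock genes (vertical axes, each spanning 2 log2 units) in the 4 lung pools, 1 array each, with smoke pools in red, control pools in blue and a grey line joining the pools of 1 duration. Arntl, Clock and Npas2 were lower and Per3 higher in both smoke pools than in both control pools, whereas Per1 and Per2 also moved between the durations and Cry1 and Cry2 were nearly flat.

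The period genes, which encode the limiting subunits of the repressor complex, did not move together. Per3, the period gene least needed for rhythms in the mouse, rose. Its signal was 508 in the smoke pool against 326 in the control pool at 2 weeks, and 465 in the smoke pool against 304 in the control pool at 4 weeks. The groups were separate, and the smoke differences of 0.64 and 0.62 were nearly equal, while the control pools differed by -0.10. Per3 rose by 0.63 ± 0.101 (limma adjusted p = 0.0455), or 1.54-fold. This call was near the threshold and was lost after cyclic loess (adjusted p = 0.0854), with no floor (adjusted p = 0.0692), without the duration term (adjusted p = 0.222) and when any 1 pool was left out, although the effect stayed between 0.56 and 0.69. Without the 2-week smoke, 2-week control, 4-week smoke and 4-week control pool the limma adjusted p was 0.557, 0.389, 0.918 and 0.384.

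Per1, a period gene that is also induced directly by cyclic AMP signalling and by glucocorticoids, fell with smoke but overlapped between the groups. Its signal was 1516 in the smoke pool against 2479 in the control pool at 2 weeks, and 2605 in the smoke pool against 4199 in the control pool at 4 weeks. The 4-week smoke pool therefore lay above the 2-week control pool. Within each duration the smoke pool was lower by almost the same amount, 1.64-fold at 2 weeks and 1.61-fold at 4 weeks. Per1 fell by 0.70 ± 0.101 (limma adjusted p = 0.0321). Without the duration term the adjusted p was 0.912, and the call was also lost after cyclic loess (adjusted p = 0.0854). In fits without duration that left out 1 pool, the effect ranged from -1.09 without the 4-week smoke pool and -1.08 without the 2-week control pool to -0.32 without the 4-week control pool and -0.31 without the 2-week smoke pool, with limma adjusted p of 1.00, 0.547, 0.901 and 0.834.

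Per2, the period gene on which rhythms in the mouse depend most, was higher in smoke than in clean air at each duration. Its signal was 861 in the smoke pool against 699 in the control pool at 2 weeks, and 1198 in the smoke pool against 913 in the control pool at 4 weeks. The 4-week control pool lay above the 2-week smoke pool, so the groups overlapped. The smoke differences of 0.30 and 0.39 were about the size of the difference of 0.39 between the control pools, and the effect of 0.35 ± 0.102 did not pass (limma adjusted p = 0.236). It passed among protein-coding genes alone (adjusted p = 0.0433). In fits without duration that left out 1 pool, the effect was 0.59 without the 2-week smoke pool, 0.15 without the 2-week control pool, 0.11 without the 4-week smoke pool and 0.54 without the 4-week control pool.

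The cryptochromes, the direct inhibitors of the CLOCK and ARNTL pair, had the smallest effects of the 8 genes. Cry1 had a signal of 267 in the smoke pool against 250.2 in the control pool at 2 weeks, and 271 in the smoke pool against 261 in the control pool at 4 weeks. Both smoke pools were above both controls, but the effect of 0.07 ± 0.101 was below its standard error (limma adjusted p = 0.889). Cry2 had 621 in the smoke pool against 583 in the control pool at 2 weeks, and 584 in the smoke pool against 661 in the control pool at 4 weeks. It was higher in smoke at 2 weeks and lower at 4 weeks, with an effect of -0.04 ± 0.114 (limma adjusted p = 0.955).

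Counted over the 8 genes, 3 passed the smoke test, with Per3 rising and Arntl and Per1 falling, where 1.47% of all genes passed, 1.15% rising and 0.315% falling. At least 1.5-fold differences between smoke and control were seen in 3 of 8 at 2 weeks (3.04% of all genes) and in 4 of 8 at 4 weeks (4.04%), in the members Arntl, Per1 and Per3 at both and Npas2 at 4 weeks. Were the values made with base e, 1 of 8 would differ by that much at 2 weeks, Arntl, and 2 of 8 at 4 weeks, Arntl and Npas2. In 5 of 8 genes the smoke and control pools did not overlap, which held for 32.5% of all genes. The median smoke difference of the members was -0.05 at 2 weeks and -0.30 at 4 weeks, against 0.0056 and -0.017 over all genes tested.

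**Figure D2:**
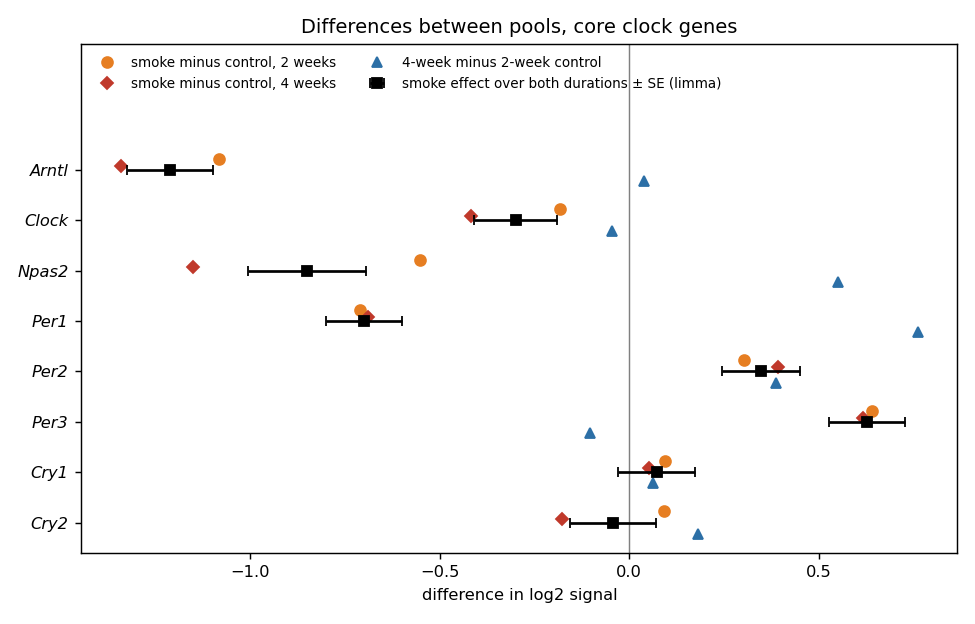
Differences in log2 signal (horizontal axis) for the 8 core clock genes: smoke minus control at 2 weeks (orange circles) and at 4 weeks (red diamonds), the 4-week minus the 2-week control pool (blue triangles), and the limma smoke effect over both durations with its standard error (black squares). Arntl and Per3 had smoke differences far from the control difference, whereas the control difference of Per1 was as large as its smoke difference and opposite in sign, and that of Per2 matched its smoke difference.

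The pools also differed by duration, which covers 2 further weeks of age as well as of exposure. Per1 was 1.72-fold higher at 4 weeks than at 2 weeks with smoke and 1.69-fold higher with clean air. Per2 was 1.39-fold higher at 4 weeks with smoke and 1.31-fold higher with clean air. These 2 comparisons share no array. By the limma duration term, Per1 had an effect of 0.77 ± 0.101 (adjusted p = 0.103) and Per2 of 0.43 ± 0.102 (adjusted p = 0.147), and 0 of the 8 genes and 0 of all genes (0%) passed, while 2847 genes had an unadjusted p under 0.05. With median centring, with the floor at the 60th percentile or among protein-coding genes alone, Per1 passed (adjusted p = 4.01e-05, 0.0233 and 0.00132), and Per2 passed in the last of these (adjusted p = 0.0308). Npas2 was 1.03-fold lower at 4 weeks than at 2 weeks with smoke, but 1.46-fold higher with clean air. For Arntl, Clock, Per3, Cry1 and Cry2 no duration difference exceeded 0.28 in size. At least 1.5-fold differences were seen in 1 of 8 members, Per1, between the smoke pools (3.14% of all genes) and between the control pools (4.09%).

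Other clock genes were read from lists chosen by role, with earlier results of these data known. Of the secondary loop, 3 of 5 genes were above the floor and 0 passed. The Arntl repressors Nr1d1 and Nr1d2 had effects of 0.49 ± 0.112 (limma adjusted p = 0.134) and 0.39 ± 0.105 (adjusted p = 0.194), and the activator Rora, which differed by -0.14 at 2 weeks and -0.61 at 4 weeks, had -0.38 ± 0.137 (adjusted p = 0.353), or -0.13 when all of its features were averaged. Among protein-coding genes alone Nr1d1 (adjusted p = 0.00804) and Nr1d2 (adjusted p = 0.0237) passed. When 1 pool was left out, in fits without duration, effects ran from 0.32 to 0.66 for Nr1d1 (lowest without the 2-week control pool), from 0.18 to 0.61 for Nr1d2 (lowest without the 4-week control pool, highest without the 2-week control pool) and from -0.63 to -0.12 for Rora (without the 2-week and the 4-week smoke pool). Of 7 PAR bZIP factors and E-box repressors, 6 were above the floor, 2 rose and 0 fell. Dbp, a D-box binding factor, had a signal of 11.32 log2 units in the smoke pool against 10.20 in the control pool at 2 weeks. At 4 weeks Dbp had 11.27 in the smoke pool against 10.36 in the control pool. It rose by 1.02 ± 0.108 (limma adjusted p = 0.0129). Bhlhe41 (Dec2), which competes for E-boxes, rose by 1.05 ± 0.114 (limma adjusted p = 0.0140), a call lost after cyclic loess (adjusted p = 0.0648). Both calls were lost without the duration term (adjusted p = 0.105 each) and in the fits, also without that term, that left out any 1 pool, where the effects stayed between 0.94 and 1.09 for Dbp and between 0.97 and 1.13 for Bhlhe41. Tef and Hlf, relatives of Dbp, had effects of 0.33 ± 0.105 and 0.12 ± 0.102, and Nfil3, the repressor that competes with them for D-boxes, had differences of -0.80 at 2 weeks and -0.25 at 4 weeks, and none of these 3 passed. Nfil3, with an effect of -0.52 ± 0.150, passed after median centring (adjusted p = 0.0217) and among protein-coding genes alone (adjusted p = 0.0172), and its effect was -0.16 without the 2-week smoke pool and -0.89 without the 4-week smoke pool. Of the post-translational regulators of PER and CRY, the kinases, phosphatases and ubiquitin ligases, 15 of 18 were above the floor, 0 passed, and no effect exceeded 0.24 in size, the lowest adjusted p being 0.447.

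**Figure D3:**
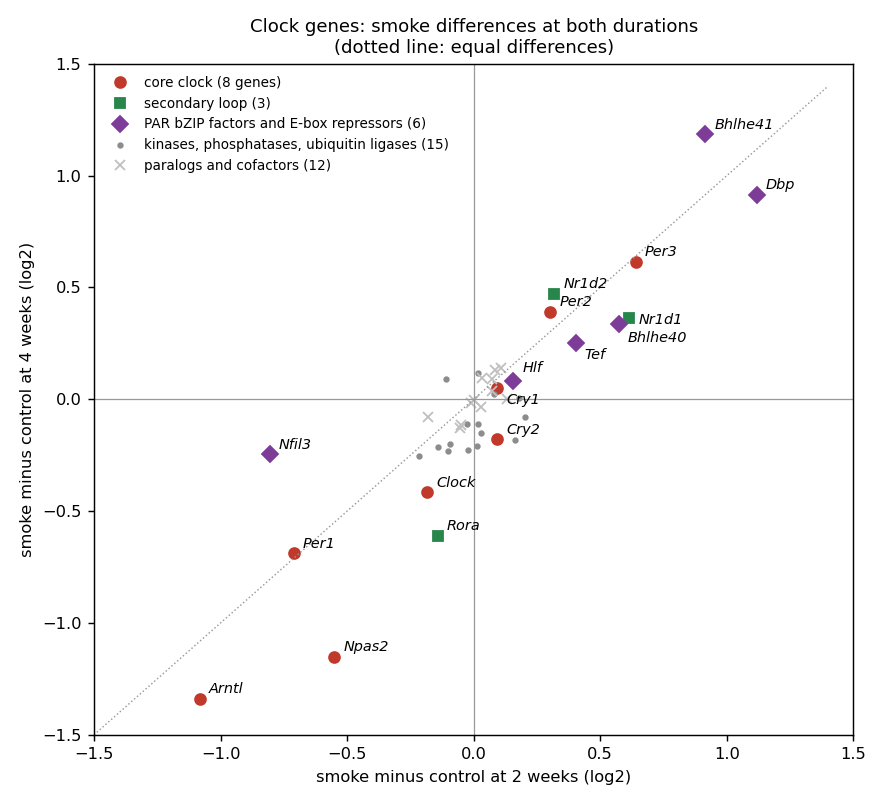
Smoke minus control difference in log2 signal at 2 weeks (horizontal axis) and at 4 weeks (vertical axis) for core clock genes (red circles), the secondary loop (green squares), PAR bZIP factors and E-box repressors (purple diamonds), post-translational regulators (grey dots) and paralogs and cofactors (grey crosses), 1 point per gene. Arntl, Npas2, Per1 and Nfil3 lie in the lower left and Dbp, Bhlhe41 and Per3 in the upper right, while the regulators and cofactors stay near 0.

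The genes with a pattern most like that of the 2 members with the widest range, Per1 and Arntl, were found by the root-mean-square distance between log2 values centred on their mean over the 4 pools. Distances were taken over 12575 protein-coding genes, whose median distance was 0.61 from Arntl and 0.52 from Per1. Nearest to Arntl were Csrnp1, a nuclear protein gene, at 0.050, the metalloprotease Adamts1 at 0.076, the antiproliferative gene Btg2 at 0.14 and the copine Cpne5 at 0.15. With the sign turned, the nearest were the cystine transporter Slc7a11 at 0.040, the leukocyte receptors Cd84 at 0.071 and Slamf7 at 0.072, and the transcription factor Tfec, of the family of Mitf, at 0.088. Nearest to Per1 were the kinase Map3k6 at 0.097, the cell cycle inhibitor Cdkn1a at 0.12, the cytokine Il1f9 at 0.12 and the mevalonate pathway enzyme Pmvk at 0.14, and with the sign turned Id2, an inhibitor of bHLH factors, at 0.20, Cd180, a toll-like receptor relative, at 0.22, the GTPase Iigp1 at 0.24 and Kmo, an enzyme of tryptophan breakdown, at 0.25. Of these neighbours, Btg2 also stands in the list of immediate early genes below and Cdkn1a in that of glucocorticoid response genes. The 4 pools fix a pattern only coarsely, and the distances are a description.

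**Figure D4:**
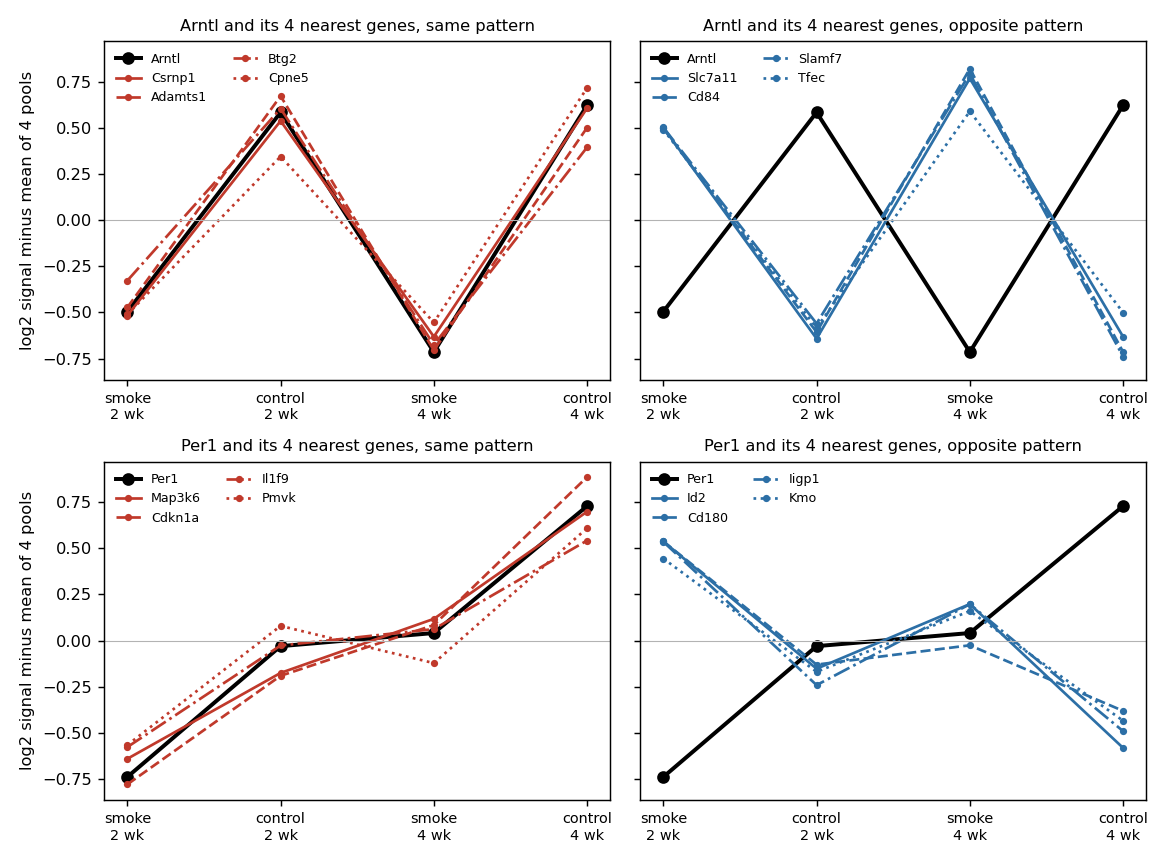
Log2 signal minus the mean of the 4 pools (vertical axis) in each pool for Arntl and Per1 (black) and the 4 protein-coding genes nearest to each in the same pattern (red) and in the opposite pattern (blue), where lines only join the points of 1 gene. For Arntl and its neighbours both smoke pools lie on 1 side of the mean and both control pools on the other, whereas Per1 and its nearest neighbour Map3k6 have the 4-week smoke pool above the mean and the 2-week control pool below it.

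Per1 is a target of the signals that drive immediate early and glucocorticoid response genes, so both lists are set beside it. Of 17 immediate early genes, 16 were above the floor, and 9 of these fell, 0 rose and 7 did not pass, with a median smoke effect of -0.98 against -0.0038 over all genes tested. Nr4a1, Fos and Egr1 fell, with effects of -3.01, -2.46 and -1.65. Between the control pools the median of this list was -0.24, where Per1 was at 0.76. Between the smoke pools the median was 0.0090, where Per1 was at 0.78. Of 11 glucocorticoid response genes, 4 fell, 0 rose and 7 did not pass, with a median effect of -0.43. That median was -0.08 without the 2-week smoke pool, -0.69 without the 2-week control pool, -0.70 without the 4-week smoke pool and -0.13 without the 4-week control pool. Pdk4, which restrains glucose oxidation, fell by 1.00 ± 0.114 (-0.65 without the 4-week control pool), Klf9 fell by 0.77 ± 0.125 and Dusp1, which stands in both lists, fell by 0.73 ± 0.102. In the same list Mt1 and Mt2 had effects above 0, of 0.24 ± 0.156 and 0.48 ± 0.203, that did not pass. The effects of 9 of the 11 genes were below 0. In the 4-week pools the glucocorticoid list was higher than in the 2-week pools by a median of 0.54 with smoke and 0.70 with clean air. Per1 was higher by 0.78 with smoke and 0.76 with clean air. Of the genes named as falling, Klf9 differed by -0.15 with smoke and 0.22 with clean air. Dusp1 differed by 0.0079 with smoke and -0.081 with clean air. After cyclic loess 2 immediate early and 0 glucocorticoid response genes still fell, and without the duration term 0 of either list did. Leaving out 1 pool left 0 to 5 calls in the immediate early list and 0 in the other. The part of either signal in the Per1 values was not tested.

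**Figure D5:**
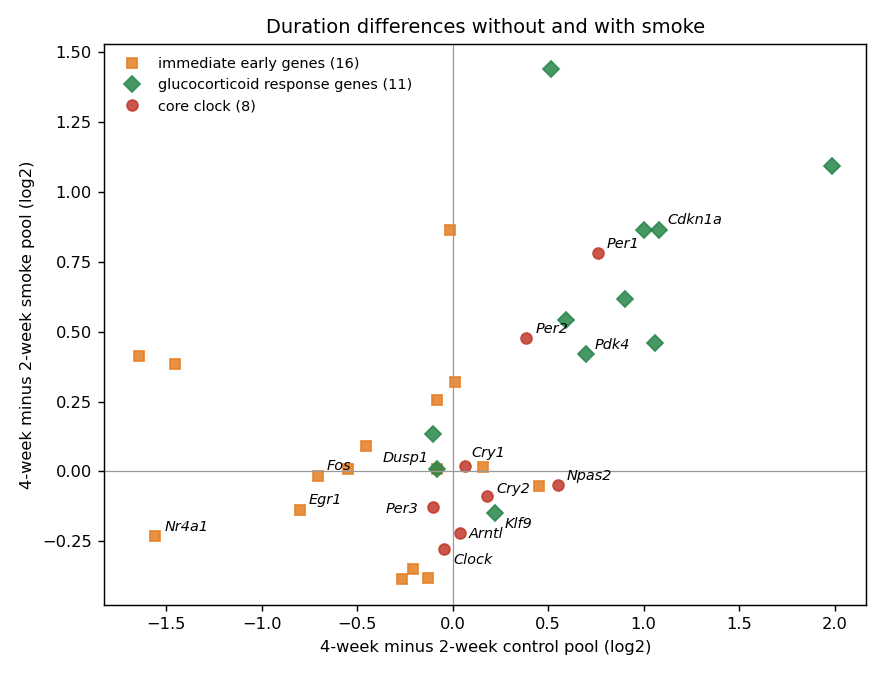
Difference in log2 signal of the 4-week minus the 2-week pool with clean air (horizontal axis) and with smoke (vertical axis) for core clock genes (red circles), immediate early genes (orange squares) and glucocorticoid response genes (green diamonds), 1 point per gene, Dusp1 standing in both lists. Per1 and Per2 lie in the upper right among most glucocorticoid response genes, and the other 6 core clock genes lie within 0.28 of 0 on the vertical axis.

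Whole lung holds many cell types, and in such bulk samples fewer cells of a type and less RNA per cell cannot be told apart. The 8 alveolar type 2 markers were all above the floor, with 1 rising and 7 not passing. Of 10 alveolar macrophage markers, 8 were above the floor. Of these Cd68, Itgax, Marco and Mrc1 rose, and 4 did not pass, with effects of 0.38 for Pparg, 0.30 for Fabp4, 0.09 for Mertk and -0.0025 for Siglecf. The summed linear signal of the 8 was 22774 and 34230 in the smoke pools against 12177 and 13046 in the control pools. Of 5 endothelial markers, all with lower values in smoke at each duration, the tight junction gene Cldn5 fell by 0.81 ± 0.102 (limma adjusted p = 0.0230) and 4 did not pass. Their sum was 265862 and 233328 in the smoke pools against 302978 and 291747 in the control pools. No marker of these 3 lists passed without the duration term or when 1 pool was left out. Of the neutrophil and cardiac muscle markers 0 passed, though all effects above the floor were below 0. After median centring, 3 of 5 neutrophil and 2 of 4 cardiac muscle markers fell. Among protein-coding genes alone, 1 of 5 and 2 of 4 fell, and after cyclic loess 0 of either. The sum for all 5 neutrophil markers was 2171 and 1648 in the smoke pools against 2272 and 4271 in the control pools, and that for 4 of 5 cardiac muscle markers, those above the floor, was 9837 and 8823 in the smoke pools against 11942 and 16048 in the control pools. The part of these cells in the clock values was not tested.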

How the data were processed

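RNA from 4 pools of mouse lung was measured on 4 arrays. The deposited intensity values are linear signals. Per the submitters' processing notes, the authors used RMA and Expression Console 1.4.1 (Affymetrix). Because RMA equalises the distributions of arrays, it would remove a shift of all genes in a pool. Neither the base of the linear scale nor a build or filter is given in the sources used here. Of 65956 features, 30604 had 1 symbol in the array annotation, 2146 had several and 33206 were unnamed here. By Entrez ID, 22815 features matched a RefSeq table of GRCm38.p6, whose symbols were used. The feature with the highest mean was used per gene, and genes above the 40th percentile of mean log2 signal (5.82) were kept. The number of arrays limits the precision.

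Samples were grouped by title. Smoke and duration effects were fitted with limma 3.58.1 in R 4.3.3 over all 18084 genes, with Benjamini-Hochberg adjustment, and the step was tested on simulated data. The spread in this fit is the change of the smoke difference with duration, moderated by a prior with 5.38 degrees of freedom, so p-values measure the spread between these pools only. The text names the 8 members, the secondary loop and PAR bZIP factors, and genes of fixed lists that passed (at most 3 in each direction). It also names the 4 genes nearest in pattern to the 2 members of widest range. Outside this rule it names all alveolar macrophage markers above the floor, and Arntl2, Mt1 and Mt2. Members and lists were chosen with earlier results of these data known. Alternatives covered scaling, floor, genes fitted, features, model, variance trend and left-out pools. Per the files, 0 columns of other samples were present.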

Additional observations from a re-analysis of the deposited data

Results flagged for a closer look

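Cry2, a cryptochrome that inhibits the CLOCK and ARNTL pair, was the only one of the 8 genes whose smoke difference had opposite signs at the 2 durations, 0.092 at 2 weeks and -0.18 at 4 weeks on the log2 scale. With 1 pool per group the difference between the durations was not tested. Opposite signs were seen in 43.5% of all genes.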

How the results depend on the processing

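Of the 8 smoke effects, only that of Cry2 changed sign among the 12 alternatives. It ran from -0.13 to 0.047 when 1 pool was left out. The floor, genes fitted, features and variance trend leave these estimates as they are, as does dropping the duration term with all 4 pools kept. Only scaling and left-out pools could therefore turn a sign. For members whose smoke and control pools did not overlap, leaving out 1 pool could not turn it either. All 192 differences of the members between single pools moved by less than 1 SD, the moderated residual SD of the gene in the main limma fit. Only median centring and cyclic loess could move them, since the other settings tried change no value of a gene with 1 feature. Genes passing for smoke numbered 265 (208 rising, 57 falling), 585 after median centring (375 and 210, where limma's prior had infinite degrees of freedom), 72 after cyclic loess (64 and 8), 884 among protein-coding genes (565 and 319), 0 without the duration term, with 1163 unadjusted p under 0.05, and 0 to 34 when 1 pool was left out, also without that term, with 597 to 1469 unadjusted p under 0.05. Members passing numbered 3, 1 after cyclic loess, 5 among protein-coding genes, 0 without the duration term and 0 to 0 without 1 pool. For duration, 0 genes passed, but 677 after median centring, 331 with the floor at the 60th percentile and 356 among protein-coding genes, with 1, 1 and 2 members. Genes at least 1.5-fold different numbered 549 at 2 weeks (2-fold, 136; protein-coding, 350; base e, 210), 730 at 4 weeks (2-fold, 158; base e, 268), 740 between the control pools (2-fold, 139; protein-coding, 267; base e, 233) and 568 between the smoke pools (2-fold, 70; no floor, 876; protein-coding, 138; base e, 119). After median centring the split of higher and lower genes went to 347 and 362 at 4 weeks, where it was 458 and 272, and to 476 and 269 between the control pools, where it was 334 and 406. After cyclic loess it was 449 and 280 between the control pools, and 312 and 270 between the smoke pools against 245 and 323. Base e and the comparison of smoke pools were added after seeing the data. When 1 pool was left out and the smoke term was dropped with it, so that duration effects hold part of the smoke difference, they ran from -0.76 to 0.58 for Arntl, -0.37 to 0.046 for Clock, -0.32 to 0.83 for Npas2, -0.44 to 0.20 for Per3, -0.0052 to 0.088 for Cry1 and -0.043 to 0.14 for Cry2. The cause of the other changes was not tested. The fit with a duration term pairs smoke and control pools by duration, and the fit without that term is the unpaired one. The labels give no replicate numbers for another pairing. The deposited table was used without a detection value per feature, which limits the reading of dim genes.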

Other observations

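The paralogs and cofactors of the core clock differed little. Of 13 clock paralogs and cofactors, 12 were above the floor, 0 passed limma for smoke, and effects ran from -0.13 to 0.12. Arntl2, the paralog of Arntl, was at 0.11 ± 0.101 (limma adjusted p = 0.803) while Arntl fell. Of 6 genes that cycle in many mouse organs, 5 were above the floor and 0 passed. For the 4-week minus the 2-week pool, these 5 genes had a median of 0.23 with smoke and 0.28 with clean air, where all genes tested had 0.0021 with smoke and 0.0091 with clean air.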
